A study of Mus musculus with 7 samples.

Results

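The transcription factors that build and maintain photoreceptors were followed in the retina of SCA7140Q/140Q knock-in mice and of WT mice. The network was taken by gene name and holds 10 genes of the 52550 in the count table, *Otx2*, *Prdm1*, *Rorb*, *Neurod1*, *Crx*, *Nrl*, *Nr2e3*, *Mef2d*, *Esrrb* and *Samd7*. All 10 were among the 20128 genes with enough counts to be tested. The mice were 12.5 weeks old and of the C57BL/6J strain. The 4 WT mice carried the normal *Atxn7* gene, and the 3 SCA7 mice were homozygous for an expanded CAG repeat knocked into it, so that every ATXN7 protein, a subunit of the SAGA coactivator complex, carried the long glutamine stretch in all cells that express the gene. Each library was made from total RNA of both retinas of 1 mouse, without the ribosomal RNA, and no library was a pool of animals.

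Photoreceptors are specified in steps. OTX2 commits precursors to the photoreceptor fate and switches on the related homeodomain factor CRX, which drives the genes of both rods and cones. The leucine zipper factor NRL then directs precursors to the rod fate and activates the nuclear receptor NR2E3, which represses cone genes in rods. Many of these factors stay on in the adult retina, where CRX and NRL sit together at the enhancers of the phototransduction genes.

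The network did not move as a block. Levels are given as CPM, read counts relative to the TMM-scaled depth of each library. *Nrl*, *Esrrb*, *Nr2e3* and *Crx* were downregulated in SCA7 retina, *Samd7* and *Prdm1* were upregulated, and *Otx2*, *Rorb*, *Neurod1* and *Mef2d* were not called, *Otx2* because of its FC alone. Downregulated here means an adjusted p under 0.05 with a fold change (FC, SCA7/WT) under 0.7, and upregulated the same p with an FC above 1.3, by the quasi-likelihood test of edgeR, adjusted by Benjamini-Hochberg over the 20128 genes. Among all genes tested, 7.91% were downregulated, against 4 of the 10 factors, and 7.47% were upregulated, against 2 of the 10. The libraries of the genotypes did not overlap for 7 of the 10 factors, against 37.5% of all genes tested. The median log2 FC was -0.05 over the 10 factors and -0.02 over all genes tested. In bulk retina, fewer cells of a type cannot be told apart from less RNA per cell.

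**Figure D1:**
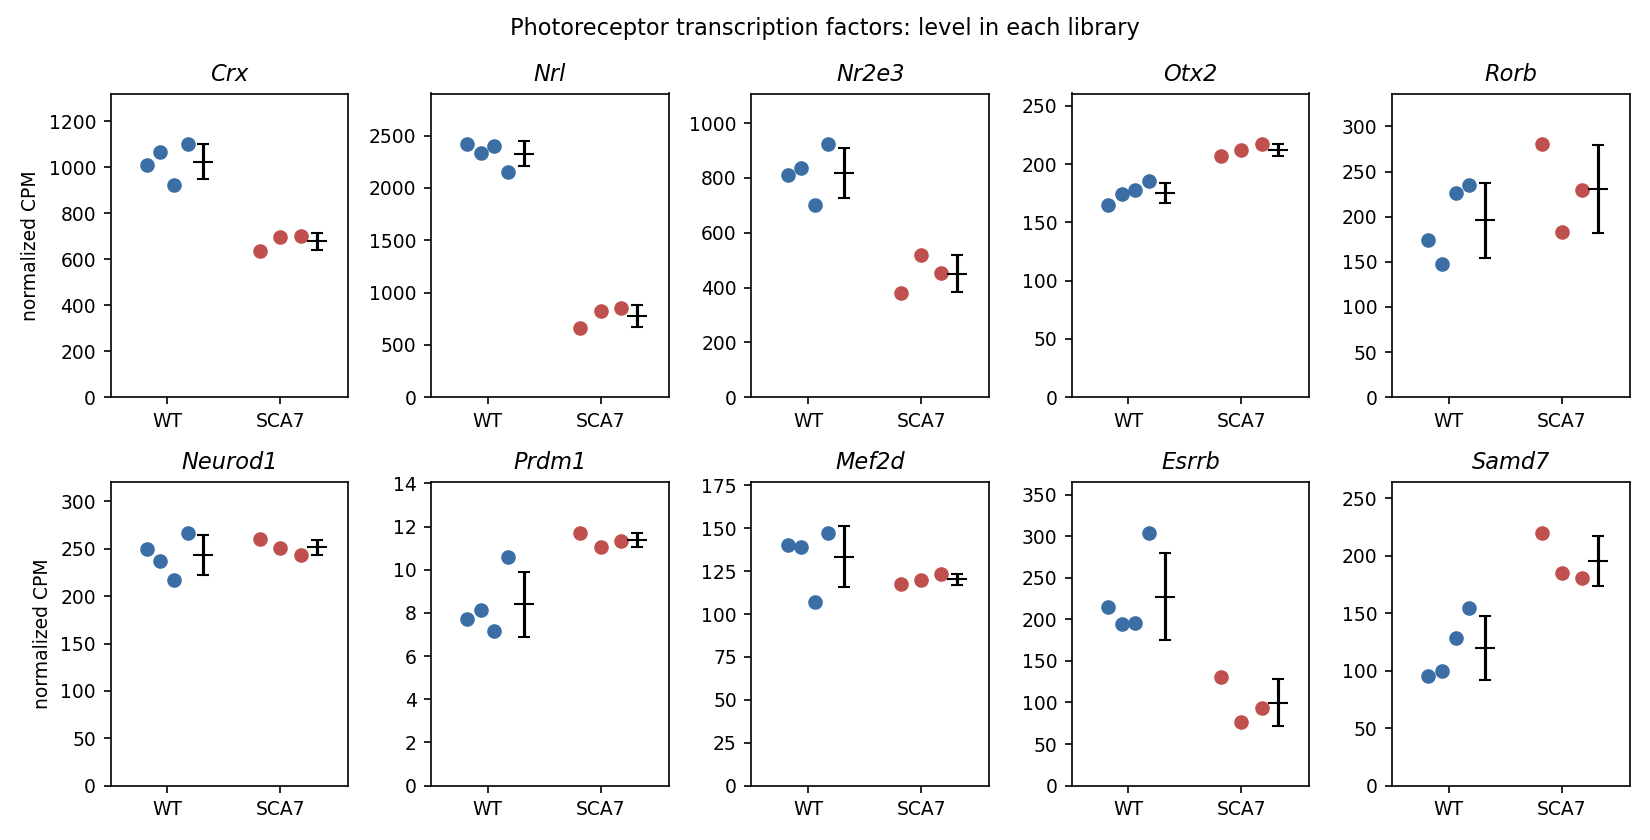
Normalised CPM (y axis from 0) of each factor in the 4 WT libraries (blue) and the 3 SCA7 libraries (red), with the mean and SD in black. *Nrl*, *Crx*, *Nr2e3* and *Esrrb* lay lower in every SCA7 library than in any WT library, and *Otx2*, *Prdm1* and *Samd7* lay higher.

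**Figure D2:**
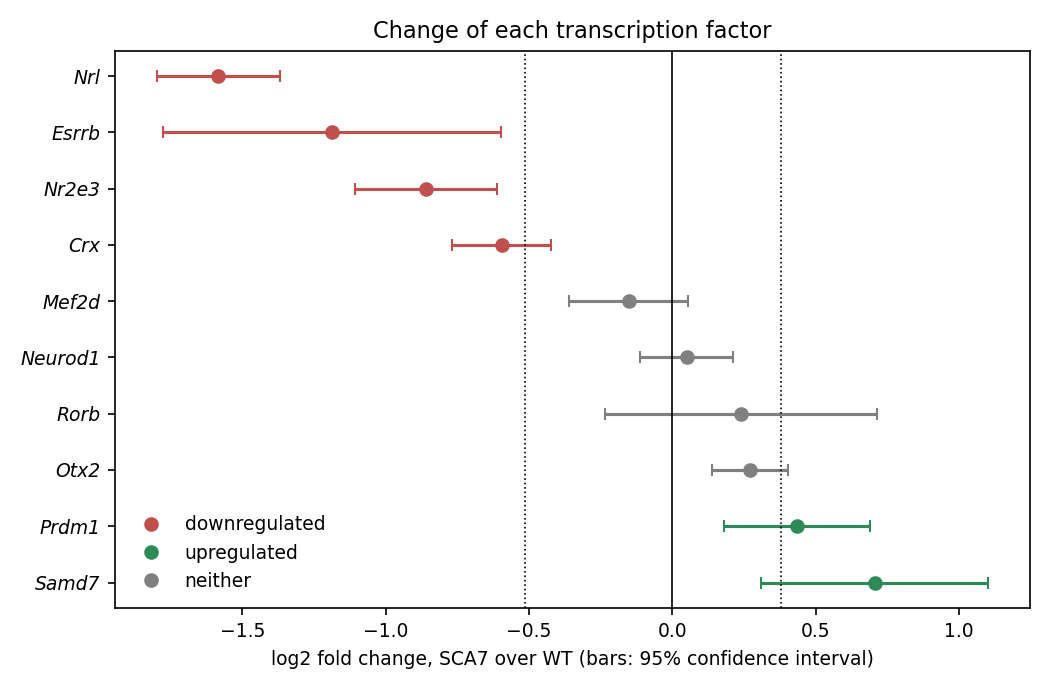
The log2 FC (SCA7/WT) of each factor from the edgeR fit with its 95% confidence interval, against the thresholds of 0.7 and 1.3 (dotted lines). The values run from -1.58 for *Nrl* to 0.71 for *Samd7*, and the interval of *Neurod1* is the narrowest of those that hold 0.

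Whole-retina markers give the setting of these values. All 10 rod markers were downregulated, with a median log2 FC of -1.27, and their summed level was 65386 to 67491 CPM in WT against 17860 to 23012 CPM in SCA7. All 8 cone markers were downregulated as well, with a median of -1.96 and a summed level of 1433 to 1710 CPM in WT and 255 to 281 CPM in SCA7. Of the 6 amacrine, 4 horizontal and 5 ganglion cell markers, 0 were called with edgeR, DESeq2 or limma-voom, while 8 of these 15 had an unadjusted p under 0.05 and 4 an adjusted p under 0.05 with edgeR, against 39.7% and 28.3% of all genes tested. Their summed levels were lower in every SCA7 library, at 403 to 439 against 467 to 559 CPM in WT for amacrine, 70.9 to 72.4 against 85.0 to 97.3 CPM for horizontal and 750.4 to 801 against 832 to 1010 CPM for ganglion cells. The last of these sums rested mostly on *Nefl* and the horizontal sum on *Calb1*, the most abundant marker of each list, both named after their values were seen. *Calb1* had a mean of 80.3 CPM in WT and 59.3 CPM in SCA7, and the other horizontal markers summed to 10.2 to 12.2 and 12.1 to 13.1 CPM. *Nefl* had a mean of 702 CPM in WT and 568 CPM in SCA7, and the other ganglion cell markers summed to 192 to 219 and 189 to 214 CPM, so that the genotypes overlapped in both lists without these genes. The amacrine sum without its most abundant marker, *Gad1*, stayed lower in every SCA7 library, at 203 to 218 against 233 to 280 CPM in WT. So did the bipolar sum without *Prkca*, at 507 to 532 against 568 to 683 CPM in WT. The 8 bipolar markers had 2 downregulated and 1 upregulated, with a summed level of 760.4 to 916 CPM in WT and 679.7 to 729.6 CPM in SCA7, and the 5 Müller glia markers 1 upregulated. All 6 microglia markers were upregulated, with a summed level of 32.1 to 38.1 CPM in WT and 67.2 to 74.6 CPM in SCA7. Of the 4 pigment epithelium markers 3 were downregulated, with a summed level of 59.8 to 122 CPM in WT and 12.6 to 30.2 CPM in SCA7. No marker was at 0 in any library, and the part of these shifts in the values below was not tested. Total counts ranged from 56497675 to 96635832 per library, so that 1 count equals between 0.00972 and 0.0188 normalised CPM.

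The factors at the core of the rod programme were all lower. *Crx* (ENSMUSG00000041578, 7:15865947-15879968 of GRCm38, minus strand) was at 1012, 1065, 922 and 1101 CPM in WT and at 637, 696 and 703 CPM in SCA7. The lowest WT library, replicate 3, lay well above the highest SCA7 library. Means were 1025 ± 77.5 CPM in WT (SD, n = 4) and 679 ± 36.3 CPM in SCA7 (SD, n = 3), with a log2 FC of -0.59 (SE 0.08, 95% interval -0.77 to -0.42, edgeR adjusted p = 0.00017). On the linear scale *Crx* fell by 33.8% (95% interval of the change -41.2% to -25.4%).

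*Nrl* (ENSMUSG00000040632, 14:55518978-55524981, minus strand), the determinant of the rod fate, had the largest decrease of the 10. It was at 2419, 2331, 2398 and 2155 CPM in WT and at 657, 822 and 850 CPM in SCA7. The lowest WT library, replicate 4, lay far above the highest SCA7 library, replicate 3. The log2 FC was -1.58 (SE 0.10, 95% interval -1.80 to -1.37, edgeR adjusted p = 4.6e-07), and the level fell by 66.6%. This change lies within the range of the 10 rod markers, whose log2 FC ran from -2.11 to -0.67, whereas the value of *Crx* is smaller in size than that of each of them.

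*Nr2e3* (ENSMUSG00000032292, 9:59942771-59960659, minus strand), which NRL activates, was at 812, 835, 699 and 923 CPM in WT and at 381, 517 and 454 CPM in SCA7. WT replicate 3 was again the lowest of its group, and the genotypes did not overlap. Its log2 FC was -0.86 (SE 0.11, 95% interval -1.11 to -0.61, edgeR adjusted p = 0.00019). Its interval overlaps that of *Crx* and not that of *Nrl*.

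The bulk levels of the factors that act before the core did not follow those of the core, and bulk levels mix cell types. *Otx2* (ENSMUSG00000021848, 14:48657677-48673819, minus strand), which opens the cascade, was at 165, 174, 177 and 185 CPM in WT and at 207, 212 and 217 CPM in SCA7. All SCA7 libraries were higher than all WT libraries, and the libraries of each genotype lay close together. The log2 FC (SCA7/WT) was 0.27 (SE 0.06, 95% interval 0.14 to 0.41) with an edgeR adjusted p of 0.0059, but its FC of 1.21 was under the threshold of 1.3, so that *Otx2* was not called.

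*Prdm1* (ENSMUSG00000038151, 10:44437177-44528501, minus strand), also known as Blimp1, holds *Otx2*-positive precursors back from the bipolar fate in the developing retina and is low in the adult. It was at 7.74, 8.12, 7.16 and 10.6 CPM in WT and at 11.7, 11.1 and 11.3 CPM in SCA7. These values rest on 382 to 691 reads per WT library and 721 to 1165 reads per SCA7 library. WT replicate 4 came near the SCA7 libraries without reaching them. In the fit, the log2 FC was 0.43 (SE 0.12, 95% interval 0.18 to 0.69, edgeR adjusted p = 0.016). The call was lost without WT replicate 1 (log2 FC 0.40, edgeR adjusted p = 0.055), without WT replicate 3 (0.37, with the FC then under 1.3) and without SCA7 replicate 1 (0.42, edgeR adjusted p = 0.064), with the direction kept.

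*Rorb* (ENSMUSG00000036192, 19:18930605-19111196, minus strand) encodes a nuclear receptor needed for *Nrl* to come on in rod precursors, and it is also transcribed in horizontal and amacrine cells. It was at 174, 148, 226 and 235 CPM in WT and at 280, 183 and 230 CPM in SCA7. The groups overlapped, with SCA7 replicate 1 above the WT range and SCA7 replicates 2 and 3 inside it. The fitted log2 FC was 0.24 (SE 0.20, 95% interval -0.24 to 0.71, edgeR adjusted p = 0.43), an interval that holds a decrease as well as an increase above an FC of 1.3. The value depended on single libraries, from 0.08 without SCA7 replicate 1 to 0.38 without SCA7 replicate 2, and was 0.12 without WT replicate 2.

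*Neurod1* (ENSMUSG00000034701, 2:79452521-79456751, minus strand), a basic helix-loop-helix factor of photoreceptors and some amacrine cells, was at 250, 238, 217 and 267 CPM in WT and at 260, 251 and 244 CPM in SCA7. All 3 SCA7 libraries fell inside the WT range. This gave a log2 FC of 0.05 (SE 0.07, edgeR adjusted p = 0.65), and its 95% interval, -0.11 to 0.21, does not reach the value of any factor that was called.

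The remaining factors work beside the core, and their values pointed in different directions. *Mef2d* (ENSMUSG00000001419, 3:88142372-88172086, plus strand) encodes a MADS-box factor that CRX brings to photoreceptor enhancers. It was at 140, 139, 107 and 147 CPM in WT and at 117, 120 and 124 CPM in SCA7. WT replicate 3 was lower than all SCA7 libraries and the other WT libraries were higher than all of them. The log2 FC was -0.15 (SE 0.09, 95% interval -0.36 to 0.06, edgeR adjusted p = 0.26). Without WT replicate 3 it was -0.24 (edgeR adjusted p = 0.0023), still short of the FC threshold.

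*Esrrb* (ENSMUSG00000021255, 12:86361117-86521628, plus strand), an orphan nuclear receptor that rods transcribe, was at 215, 194, 196 and 304 CPM in WT and at 130, 76.0 and 93.5 CPM in SCA7. WT replicate 4 stood above the other WT libraries and SCA7 replicate 1 above the other SCA7 libraries, and the genotypes did not overlap. Its log2 FC was -1.19 with the widest interval of the called factors (SE 0.24, 95% interval -1.78 to -0.60, edgeR adjusted p = 0.013). Leaving out each library in turn gave values from -1.42 to -1.01.

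*Samd7* (ENSMUSG00000051860, 3:30746293-30767174, plus strand) encodes a sterile alpha motif protein of a Polycomb repressor complex that silences non-rod genes in rods. It was at 95.1, 100.1, 129 and 155 CPM in WT and at 220, 185 and 180 CPM in SCA7. WT replicates 3 and 4 were higher than WT replicates 1 and 2, yet below all SCA7 libraries. The log2 FC (SCA7/WT) was 0.71 (SE 0.17, 95% interval 0.31 to 1.10, edgeR adjusted p = 0.018), the largest increase of the 10. The call was lost without WT replicate 3 (0.74, edgeR adjusted p = 0.079), without SCA7 replicate 1 (0.61, edgeR adjusted p = 0.064) and with no filter on low counts (0.73, edgeR adjusted p = 0.076), with the direction kept in each.

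The factors also differed in how far mice of 1 genotype lay apart. The SD of log2 CPM within genotypes was 0.34 for *Esrrb*, 0.31 for *Rorb* and 0.27 for *Samd7*, above that of 96.6%, 95.5% and 93.2% of the 14720 genes whose mean reached 1 CPM. It was 0.06 for *Otx2*, above that of 13.9% of those genes, and the median gene had 0.11. *Crx* and *Neurod1*, both at 0.10, lay near that median, and *Nrl* was at 0.14. The small difference in *Otx2* and the larger but less certain one in *Samd7* therefore rest on very different spreads.

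A ratio taken within a library does not depend on how libraries are scaled. The log2 ratio of *Nrl* to *Crx* counts was 1.18 ± 0.18 in WT (SD, n = 4) and 0.19 ± 0.12 in SCA7 (SD, n = 3), so that *Nrl* per *Crx* fell to 0.501 of the WT ratio. The ratio of *Nr2e3* to *Crx* fell by 0.27 on the log2 scale. Those of *Samd7*, *Prdm1*, *Otx2*, *Neurod1* and *Mef2d* were higher by 1.32, 1.05, 0.87, 0.65 and 0.45 on the log2 scale, without overlap between genotypes. Each of these 7 ratios had p = 0.0286 in an exact two-sided permutation test over the 35 arrangements of the libraries, the smallest p it can give, and an adjusted p of 0.0367 over the 9 ratios. The *Rorb* ratio was higher by 0.84 without overlap (exact permutation p = 0.0571, adjusted p = 0.0643). The *Esrrb* ratio was lower by 0.60 with overlap (exact permutation p = 0.0857). All 9 ratios share *Crx*, which itself fell (log2 FC -0.59), so that a factor with an unchanged level also gains. *Neurod1* and *Mef2d* had log2 FC values of 0.05 and -0.15 of their own. Their higher ratios therefore do not show that these factors rose.

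**Figure D3:**
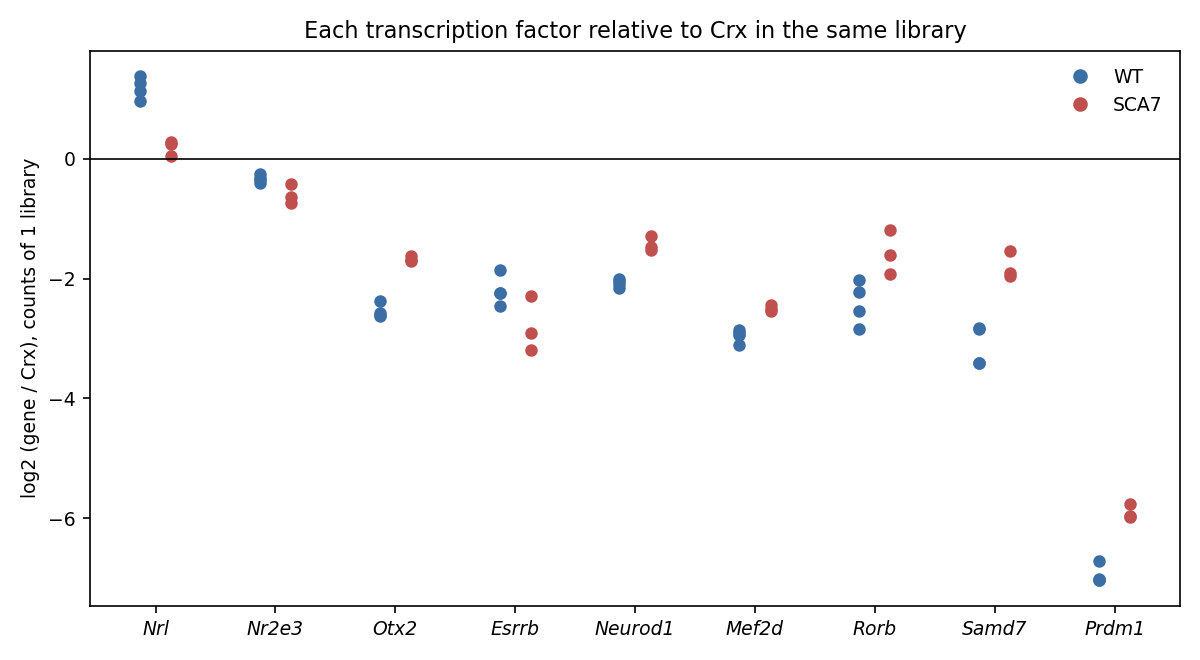
The log2 ratio of the counts of each factor to those of *Crx* in the same library, for 4 WT libraries (blue) and 3 SCA7 libraries (red), with a line where both counts are equal. The *Nrl* ratio drops from between 0.97 and 1.38 to between 0.04 and 0.27, whereas the *Samd7* ratio moves up by 1.32.

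Levels of different genes were compared per transcript length, as reads per kilobase (RPK) of the median annotated transcript after division by DESeq2 size factors. In WT retina *Nrl* was first with a mean of 83269 RPK, followed by *Crx* with 48167, *Nr2e3* with 32404 and *Otx2* with 11723 RPK. The ranges of these 4 over the WT libraries did not overlap each other or that of the next gene on this length. With the union of exons as the length, *Nrl*, *Crx* and *Nr2e3* kept their order without overlap, but *Otx2* (2869 RPK) lay below *Neurod1* (6148 RPK). By median transcript length, *Esrrb* (6974 RPK), *Neurod1* (6148), *Mef2d* (5217), *Rorb* (4734) and *Samd7* (3614) followed, and each neighbour in this row overlapped the next. *Prdm1* came last with 177 RPK. Against the 15422 protein-coding genes tested, whose median was 826 RPK, *Nrl* lay above 99.8%, *Crx* above 99.5% and *Nr2e3* above 98.9%, and *Prdm1* above 27.1%.

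In SCA7 retina the order began with *Crx* at 32170 RPK, and *Nrl* at 28034 RPK came next. Their ranges, 30247 to 33481 RPK for *Crx* and 23766 to 30847 RPK for *Nrl*, overlapped. This overlap depended on the length used: with the union of all exons as length, *Crx* ran from 14061 to 15565 and *Nrl* from 8054 to 10454 reads per kilobase in SCA7, and *Nrl* overlapped *Nr2e3* (7900 to 10622) instead. *Nrl* stood above *Crx* in WT and below it in the SCA7 means with either length. By the median transcript length *Esrrb* went from position 5 to 9 and *Samd7* from 9 to 6, and by the union of exons from 6 to 9 and from 7 to 6, among neighbours whose WT ranges overlap at positions 5 to 9 of the first order. Of the summed RPK of the 10 factors, *Nrl* held 36.7% to 44.3% in WT but 21.1% to 25.1% in SCA7. *Crx* held 22.3% to 24.7% in WT and 26.9% to 27.3% in SCA7, and *Nr2e3* 14.3% to 17.4% and 13.6% to 17.0%. The other 7 members together held 17.7% to 21.3% in WT and 31.4% to 38.3% in SCA7. The sum itself ran from 193461 to 210240 RPK over the WT libraries, as against 112397 to 122709 RPK in SCA7.

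**Figure D4:**
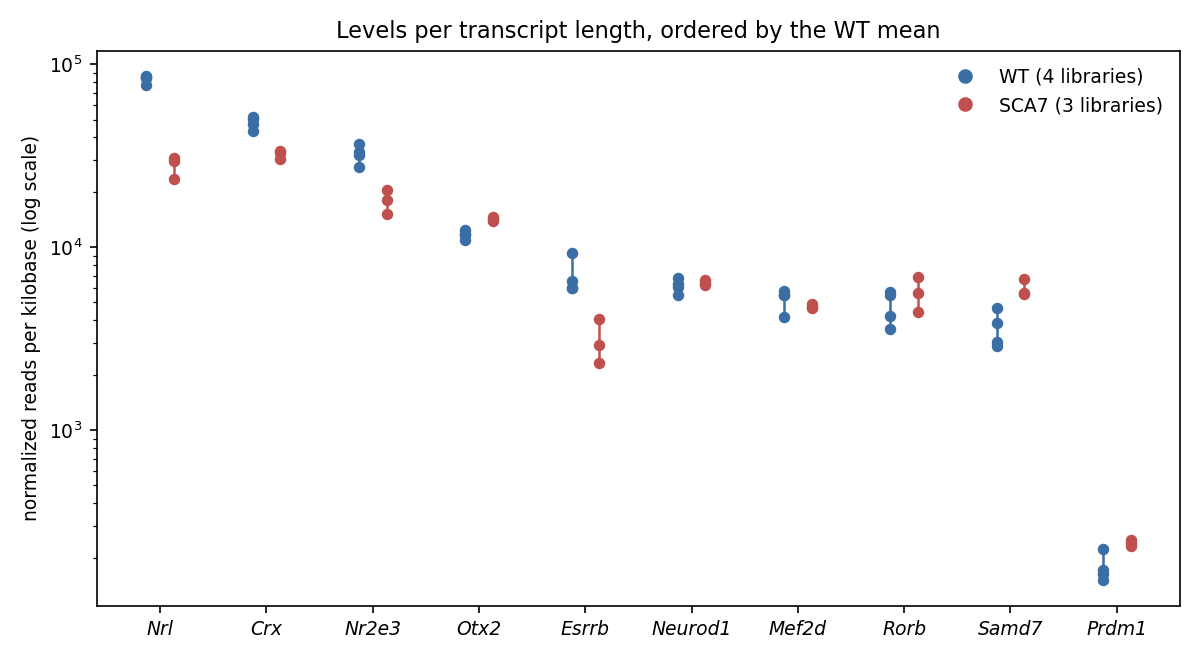
Reads per kilobase of each factor on a log axis, ordered by the WT mean, with 1 point per library and a line over the range of each genotype (WT blue, SCA7 red). *Nrl* stands first in WT at 83269 RPK and next to *Crx* in SCA7, at 28034 and 32170 RPK with this length.

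CRX and OTX2 bind the letters TAATCC, read as GGATTA on the other strand. The 300 bases around each RefSeq start site (250 before and 50 after, GRCm38.p6) were searched for them on both strands, in 15 windows of the 10 genes. They occurred in 3 of these 15 windows, those of *Crx* and *Samd7* and 1 of *Otx2*, and in 7.06% of all 32851 windows. *Crx*, which was downregulated, and *Samd7*, which was upregulated, thus both hold the letters, and *Nrl* does not in its window. The upstream stretches of *Crx* and *Samd7* are shown because they carry the same letters beside opposite changes, with the match in capitals. The first is chr7:15879969-15880085 (minus strand), 117 bases ending 14 before the start site, with matches at -94 and -21. The second is chr3:30746133-30746252 (plus strand), 120 bases ending 41 before the start site, with a match at -139. Neither overlaps an annotated exon.
Crx: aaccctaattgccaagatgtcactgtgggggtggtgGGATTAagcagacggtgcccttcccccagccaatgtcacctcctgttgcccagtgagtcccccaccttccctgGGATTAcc
Samd7: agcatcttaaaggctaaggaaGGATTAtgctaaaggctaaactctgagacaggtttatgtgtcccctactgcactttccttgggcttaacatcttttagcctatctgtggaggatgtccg
The core letters AGGTCA of nuclear receptor sites, used by receptors such as RORB and ESRRB, or the reverse complement TGACCT, were in 0 of the 15 windows and in 16.3% of all windows. The core letters of NRL sites, TGCTGA or TCAGCA on the other strand, were in 5 of the 15 windows, of *Otx2*, *Rorb*, *Neurod1* and *Mef2d*, and in 19.5% of all windows. A match is a match of letters and says nothing of binding.

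Annotated genes that share ground with the factors were read beside them, since the strand option used in counting is not given in the sources used here. *Gm7616*, an antisense RNA within *Nr2e3* that shares no exon with it, was at 1.57 to 2.63 CPM in WT and 0.211 to 0.398 CPM in SCA7, a log2 FC of -2.61 (SE 0.24, edgeR adjusted p = 1.1e-05). *Otx2os1*, which runs opposite to *Otx2* with 154 bases of shared exon, went from 19.6 ± 1.07 to 16.9 ± 0.494 CPM (SD), a log2 FC of -0.21 (edgeR adjusted p = 0.032) that did not reach the FC threshold. Its value was lower in every SCA7 library while that of *Otx2* was higher. *Cerkl*, a retinal gene on the same strand as *Neurod1* with 201 shared exon bases, was upregulated from 32.9 ± 2.40 to 48.7 ± 0.795 CPM (log2 FC 0.57, edgeR adjusted p = 6e-05). Reads in shared bases cannot be assigned to one of the pair with certainty. *Gm26755*, opposite to *Neurod1*, was upregulated from 0.682 to 1.23 CPM (log2 FC 0.85, edgeR adjusted p = 0.0048), and *1700113A16Rik*, opposite to *Mef2d*, was not called (0.11, edgeR adjusted p = 0.59). *Gm15507*, which overlaps *Nr2e3* on its own strand, had at most 4 reads in a library and was not tested. *Crx*, *Nrl*, *Rorb*, *Prdm1*, *Esrrb* and *Samd7* overlap no other gene of the count table.

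A list of 64 other regulators, 61 of them tested, was read in the same fit. Of these, 3 were downregulated and 4 upregulated, near the 7.91% and 7.47% of all genes tested, with a median log2 FC of -0.03. Another 11 had an adjusted p under 0.05 without reaching an FC threshold, 9 of them lower and 2 higher in SCA7, where 6.26% of all genes tested were lower and 6.7% higher in this way. The genotypes did not overlap for 22, near the 37.5% of all genes tested. The list covers cofactors of the photoreceptor factors, cone regulators, paralogs of the 10 factors, progenitor and neurogenic factors and fate factors of the inner retina.

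Among 13 cofactors, *Samd11*, the sterile alpha motif partner of SAMD7 in the same Polycomb complex, was at 304, 268, 234 and 298 CPM in WT and at 93.2, 119 and 113 CPM in SCA7. The groups lay far apart, and the log2 FC was -1.35 (SE 0.11, edgeR adjusted p = 4.3e-06), opposite in sign to that of *Samd7*. The log2 ratio of *Samd7* to *Samd11* counts ran from -1.68 to -0.86 in WT and from 0.63 to 1.24 in SCA7, a 4.21-fold higher ratio, given without a test. The Polycomb gene *Phc1* rose from 19.4 ± 2.52 to 26.3 ± 0.639 CPM (log2 FC 0.43, edgeR adjusted p = 0.0040), a call that was lost without WT replicate 3 (0.36, with the FC then under 1.3). The remaining 11 cofactors were not called, 3 of them with an adjusted p under 0.05 and a lower level in SCA7 that did not reach the FC threshold, *Sp4* (-0.30), *Ep300* (-0.28) and *Casz1* (-0.40), which were named after their values were seen.

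Among 13 paralogs tested, 1 was called. *Mef2c*, which belongs to the family of *Mef2d*, was at 187, 167, 151 and 190 CPM in WT and at 58.0, 65.4 and 66.9 CPM in SCA7. All SCA7 libraries lay far under the lowest WT library, replicate 3, and the log2 FC was -1.45 (SE 0.09, edgeR adjusted p = 4.3e-07). The log2 ratio of *Mef2d* to *Mef2c* counts ran from -0.49 to -0.26 over the WT libraries and from 0.87 to 1.02 over the SCA7 libraries. The ratios of *Neurod1* to *Neurod4* and of *Rorb* to *Rora*, taken in the same way, overlapped between genotypes. They were 1.23-fold and 1.05-fold those of WT, given without a test. *Mef2a* had a log2 FC of 0.16 (edgeR adjusted p = 0.052), and *Mef2b*, with at most 7 reads in a library, was not tested. *Neurod4* had -0.25 (edgeR adjusted p = 0.043, under the FC threshold), *Neurod2* -0.23 and *Neurod6* -0.10. *Esrra* and *Esrrg*, of the family of *Esrrb*, had -0.03 and -0.01. Of the large Maf factors related to *Nrl*, *Maf* had -0.01 and *Mafa* -0.88, the last at a mean of 0.21 CPM in WT and with an edgeR adjusted p of 0.20. *Nr2e1* had -0.12 and *Otx1* -1.04, the last at a mean of 0.301 CPM in WT and with an edgeR adjusted p of 0.18.

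Among 8 cone regulators, *Thrb*, the thyroid hormone receptor that sets M-opsin identity, fell from 85.2 ± 6.72 to 53.9 ± 1.99 CPM (log2 FC -0.66, edgeR adjusted p = 2.8e-05). *Nr2f2* rose from 7.49 ± 0.518 to 9.99 ± 0.143 CPM (log2 FC 0.42, edgeR adjusted p = 0.0026). Among 12 progenitor and neurogenic factors tested, *Notch1* was called and rose from 21.4 ± 2.09 to 38.4 ± 4.80 CPM (log2 FC 0.84, edgeR adjusted p = 4.7e-05). Among 15 inner retina factors, *Ptf1a*, which specifies amacrine and horizontal cells, was called, with 1 to 3 reads per WT library and 14 to 25 reads per SCA7 library. The pooled counts, 8 in WT and 56 in SCA7, give a ratio of 6.97 after scaling, with an exact 95% interval of 3.31 to 16.9 that covers counting error only. *Ptf1a* passed the filter on low counts only through the SCA7 libraries, where it is high, and was not tested when 10 counts were required in every library, which left 3 upregulated regulators. With no filter it was called as well (edgeR adjusted p = 4.1e-05). *Foxn4* and *Olig2* were not tested.

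**Figure D5:**
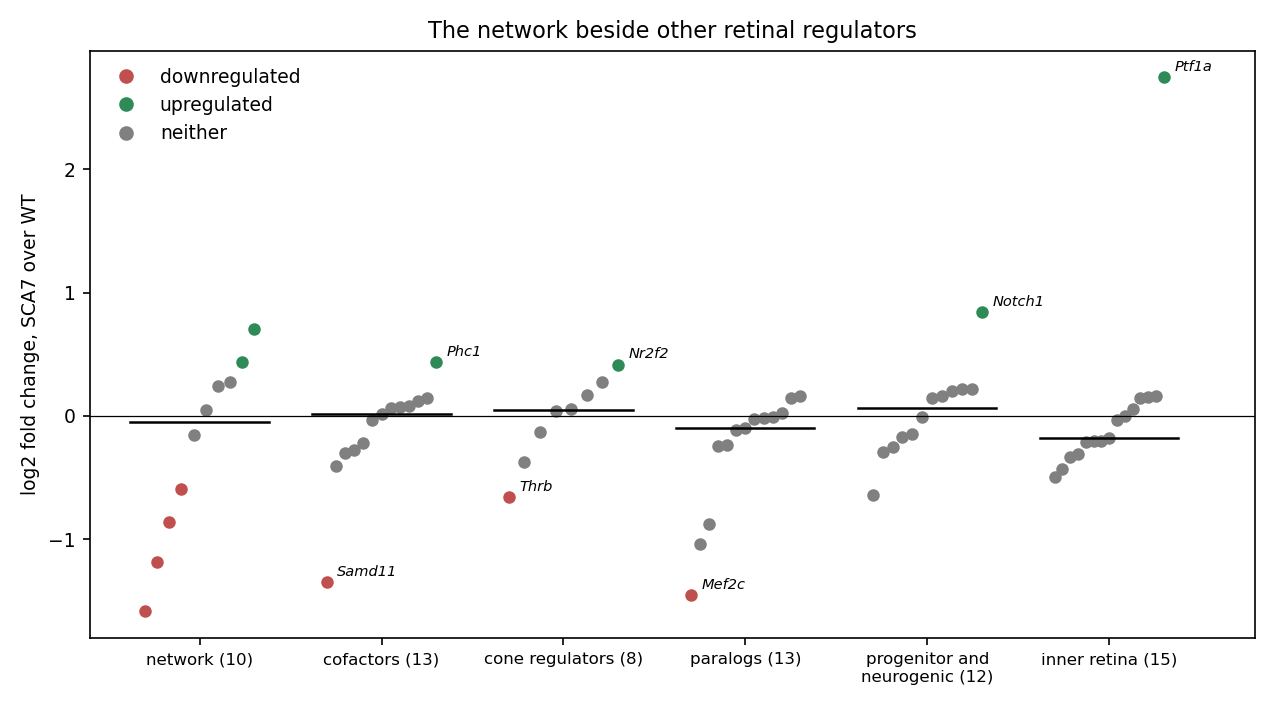
The log2 FC (SCA7/WT) of the 10 factors and of 61 other regulators by group, with 1 point per gene, the median of each group as a black line and the called regulators named. The network spans -1.58 to 0.71, and 7 of the 61 other regulators are called, with *Mef2c* at -1.45 and *Samd11* at -1.35 the lowest.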

How the data were processed

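Total RNA-seq counts of 7 mice, 1 library from both retinas of each, were analysed. Per the labels and methods, the authors used stranded libraries without ribosomal RNA, single reads, TopHat2 2.0.14 with Bowtie2 2.1.0 on mm10 and HTSeq 0.6.1 on Ensembl genes, and deposited raw counts without normalization. The strand option is not given in the sources used here. Genes were kept by filterByExpr, scaled by TMM and compared with the quasi-likelihood test of edgeR 4.0.16 (R 4.3.3), with Benjamini-Hochberg adjustment over 20128 genes. CPM values are TMM-scaled. Alternatives were DESeq2 1.42.0, limma-voom (limma 3.58.1), other scalings, filters and thresholds, a replicate block and each library left out. On simulated counts for this comparison, edgeR recovered 195 of 200 genes changed by a log2 of 1 among 19786 genes, with 5 unchanged genes called. The changed genes all had a mean of at least 1 CPM. Smaller changes, such as those of *Prdm1* and *Samd7*, were not simulated. All 10 network genes were named, with called regulators, paralogs and overlapping genes; the values of 2 paralogs are not reported here. The members and lists were chosen with earlier results of these data known, so counts over them are descriptions. Gene positions are from GENCODE M21 and promoter letters from RefSeq. ChIP-seq was not analysed here. The edgeR p-values set the genotype difference against the spread between these mice, moderated over all genes tested. The permutation p-values rank the difference in a ratio among the arrangements of the libraries.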

Additional observations from a re-analysis of the deposited data

How the results depend on the processing

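The calls of *Crx*, *Nrl*, *Nr2e3* and *Esrrb* and the lack of a call for *Otx2*, *Rorb* and *Mef2d* held in 14 alternatives of scaling, test, filter, block and left-out library, with an edgeR adjusted p of up to 0.049 for *Esrrb*. At an adjusted p under 0.01 the downregulated factors were 3, without *Esrrb*, and the upregulated factors 0. The number of upregulated factors was 3 with no FC threshold, 1 with no filter on low counts and between 0 and 2 with 1 library left out (0 without WT replicate 3 or SCA7 replicate 1). With no FC threshold 12 regulators were downregulated and 6 upregulated of 61, and 2852 and 2853 of all 20128 genes. The downregulated regulators were between 3 and 5 with 1 library left out. *Neurod1* had log2 FC values from -0.00025 to 0.10 with 1 library left out. Of the uncalled paralogs, the same ranges were -0.065 to 0.020 for *Maf*, -0.23 to 0.034 for *Neurod6*, -0.079 to 0.050 for *Esrra* and -0.050 to 0.015 for *Esrrg*, and -0.19 to -0.0055 for *Nr2e1* (lowest in size without WT replicate 4), -1.67 to -0.58 for *Otx1* (without SCA7 replicate 2 and WT replicate 1), -0.30 to -0.15 for *Neurod2* (lowest in size without WT replicate 4) and -1.56 to -0.55 for *Mafa*. *Maf* and *Esrrg* changed sign to 0.0099 and 0.0061 with no filter. *Mafa* passed the thresholds without SCA7 replicate 1 (-1.56, edgeR adjusted p = 0.050). With the replicate number as a block, the factors again had 4 downregulated and 2 upregulated, the regulators 4 and 4, *Rorb* had 0.34 (edgeR adjusted p = 0.020, under the FC threshold), *Otx1* was called (-1.16, edgeR adjusted p = 0.019), and *Maf* and *Esrrg* had 0.0054 and 0.017. Whether the numbers pair the samples was not settled. The same-numbered deviations correlated at 0.0068, 0.20 and 0.083, and not every library correlated best with its own number. Correlations from so few libraries cannot decide it. With the union of exons as length, a choice made after seeing the data for the shares, *Nrl* held a median of 34.3% of the summed level in WT and 19.1% in SCA7, and the WT order after *Nr2e3* became *Neurod1*, *Otx2*, *Esrrb*, *Samd7*, *Mef2d*, *Rorb* and *Prdm1*. The cause of these shifts was not tested.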
